A study of Mus musculus with 11 samples.

Results

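Fatty acid uptake and beta-oxidation were followed through 9 genes of AML12 cells, taken from the deposited count table by gene name out of 24849 genes in all, with the counts of entries that share a name summed. Cd36 and Fabp1 handle fatty acids at the membrane and in the cytosol, Cpt1a and Cpt2 form the carnitine shuttle, Acadvl, Acadl and Acadm are acyl-CoA dehydrogenases, and Hadha and Ehhadh carry the following hydratase and dehydrogenase steps. All 9 were found and all 9 passed the filter on low counts in every comparison. AML12 (alpha mouse liver 12) is a mouse hepatocyte line, grown here in medium with insulin, transferrin, selenium and dexamethasone. The 11 libraries were 4 of KO cells, 3 of WT cells and 4 of KI cells. KO cells carried a CRISPR/Cas9 and homology-directed disruption of Txndc5, the gene of an endoplasmic reticulum protein disulfide isomerase, and had been selected with puromycin (the genotype label reads TXNDC5 Knockdown). KI cells carried the genotype label TXNDC5 Knockin, with TXNDC5 overexpressed from the ROSA26 locus. WT cells were the AML12 line without either change. The WT library numbered 5-6 is 1 library. Nothing in the labels says whether libraries of a group came from separate cultures or clones, so the p-values measure the spread between these libraries, which may be technical, and a difference between lines cannot be told apart from one between the cells each line was grown from.

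Long-chain fatty acids enter hepatocytes partly through the scavenger receptor CD36 and bind FABP1 in the cytosol. After activation to acyl-CoA they pass into mitochondria through carnitine palmitoyltransferase 1, the rate-limiting step, and carnitine palmitoyltransferase 2, and are then shortened in rounds of dehydrogenation, hydration, a second dehydrogenation and thiolysis. Peroxisomes hold a parallel set of enzymes, EHHADH among them, and in liver the nuclear receptor PPARα, paired with a retinoid X receptor, drives genes of both organelles during fasting.

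The 250 bases before the start of 5 members are shown, because these genes held the largest changes (Cd36, Ehhadh, Fabp1), fell in both lines (Acadvl) or gate the pathway (Cpt1a). The sequences are from RefSeq on GRCm38.p6, read 5′ to 3′ on the strand of the gene, with 1 start a gene. Capitals mark the nuclear receptor half-site AGGTCA, searched on both strands without mismatch, and the direct repeat AGGTCANAGGTCA to which PPARα and its partner are known to bind, searched on both strands with up to 2 mismatches. On the opposite strand the half-site reads TGACCT.
Cd36, chr5:17835897-17836146, minus strand: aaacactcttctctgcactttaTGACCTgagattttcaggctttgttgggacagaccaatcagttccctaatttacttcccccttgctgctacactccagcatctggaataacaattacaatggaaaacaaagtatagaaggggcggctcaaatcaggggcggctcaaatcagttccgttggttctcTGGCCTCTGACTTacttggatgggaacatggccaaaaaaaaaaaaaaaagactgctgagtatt
Fabp1, chr6:71199629-71199878, plus strand: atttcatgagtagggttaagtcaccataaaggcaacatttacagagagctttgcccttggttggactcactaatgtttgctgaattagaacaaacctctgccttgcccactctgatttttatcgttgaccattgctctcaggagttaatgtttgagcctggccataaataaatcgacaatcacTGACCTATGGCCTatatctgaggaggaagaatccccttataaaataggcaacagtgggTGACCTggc
Acadvl, chr11:70015429-70015678, minus strand: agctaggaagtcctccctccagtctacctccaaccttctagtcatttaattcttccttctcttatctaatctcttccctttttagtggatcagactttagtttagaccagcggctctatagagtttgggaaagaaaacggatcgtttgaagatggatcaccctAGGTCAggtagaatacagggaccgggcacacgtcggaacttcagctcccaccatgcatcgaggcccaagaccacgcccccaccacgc
Cpt1a, chr19:3323051-3323300, plus strand: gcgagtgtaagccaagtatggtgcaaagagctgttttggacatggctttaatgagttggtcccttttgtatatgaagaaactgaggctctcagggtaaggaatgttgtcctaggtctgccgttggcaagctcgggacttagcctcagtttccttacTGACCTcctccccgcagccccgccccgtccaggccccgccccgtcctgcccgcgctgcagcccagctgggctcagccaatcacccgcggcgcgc
Ehhadh, chr16:21787835-21788084, minus strand: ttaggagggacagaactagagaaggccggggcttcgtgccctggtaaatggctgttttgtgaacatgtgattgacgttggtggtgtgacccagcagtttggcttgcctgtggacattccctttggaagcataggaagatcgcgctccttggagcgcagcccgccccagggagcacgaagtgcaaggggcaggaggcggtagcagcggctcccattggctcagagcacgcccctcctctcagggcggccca

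The exact half-site stood upstream of 5 of the 9 members (Cpt1a, Acadm, Acadvl, Cd36 and Fabp1), or 55.6%, while 14.0% of 32851 mouse promoters of the same length held one. The direct repeat was matched in Cd36, from 63 to 51 bases before the start with 2 mismatches, and in Fabp1, from 67 to 55 bases before the start with 1 mismatch. That of Fabp1 overlaps one of its exact half-sites. A match at this stringency stood in 3.24% of all promoters. Neither motif was matched upstream of Ehhadh, which carried GC boxes (GGGCGG, in 6 of the 9 members and 32.7% of all promoters). The other searches found CCAAT in 3 of the 9 members (33.8% of all promoters) and TATAAA only in Fabp1 among the 9 (12.4% of all promoters). These matches describe letters in a window and were not tested for binding.

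The libraries held 29840366 to 38422243 counts. Levels are given as CPM, the count of a gene scaled to a common library size, with library sizes corrected by the trimmed mean of M values (TMM) over all 11 libraries. Entries that the assembly had added without a gene name took 18.8 to 25.3% of the counts in WT, 11.9 to 13.4% in KO and 9.65 to 16.4% in KI, and 1 such entry alone took 11.3 to 17.1% in WT. Scaling by library totals in place of TMM shifted the middle of the tested genes on the log2 scale. It went from -0.03 to 0.38 in KO against WT and from -0.02 to 0.30 in KI against WT. Every fold change and count given with library totals below contains that shift. Txndc5 itself stood at 143 ± 4.37 CPM in WT (SD, n = 3) and at 10.2 ± 1.90 in KO (n = 4), where it was 14.1-fold lower (adjusted p = 4.09e-08, edgeR quasi-likelihood test with Benjamini-Hochberg adjustment). In KI it stood at 169 ± 10.2 CPM (n = 4), above every WT library but only 1.18-fold, and did not pass the test (edgeR adjusted p = 0.136; 0.00623 with library totals). Most hepatocyte markers were present in all groups, with Alb at 373 to 739 CPM in WT, 3590 to 4770 in KO and 160 to 302 in KI. Asgr1, the asialoglycoprotein receptor, was at or near 0 in all groups. It stood at 0.354 to 0.446 CPM in WT (10 counts a library), at 0 in every KO library and at 0 to 0.441 CPM in KI. Other hepatocyte markers were mixed, with Hnf4a at 82.0 to 135 CPM in WT, 266 to 292 in KO and 121 to 139 in KI. Ttr stood at 612 to 1040 CPM in WT, 393 to 532 in KO and 494 to 733 in KI. Apoa1 stood at 1.25 to 1.98 CPM in WT, 16.7 to 28.1 in KO and 0.392 to 1.12 in KI. Krt8 stood at 2430 to 3360 CPM in WT, 2380 to 3110 in KO and 3870 to 4700 in KI, and Krt18 at 797 to 1290, 910 to 1030 and 1230 to 2190. Markers of cholangiocytes, the bile duct cells, were expressed as well. Krt19 stood at 653 to 862 CPM in WT, 1030 to 1180 in KO and 565 to 817 in KI. Krt7 stood at 166 to 188, 15.1 to 18.2 and 107 to 131, and Sox9 at 40.3 to 57.2, 27.6 to 37.8 and 30.7 to 43.1. Epcam was at 0 in all.

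Of the 9 members, 4 passed an adjusted p of 0.05 in KO against WT, where 55.1% of all 13359 genes tested did (26.7% higher and 28.4% lower, edgeR quasi-likelihood test). With library totals 4 members were higher and 2 lower, without WT 7 the members higher were 0, and without WT 5-6 or WT 8 they were 2. Ehhadh was higher in KO, and Cd36, Acadvl and Acadl were lower. In KI against WT, 4 of the 9 passed, all lower (Cd36, Fabp1, Ehhadh and Acadvl), beside 42.3% of 13534 genes in either direction (21.2% higher and 21.0% lower). Both comparisons share the 3 WT libraries. In KO against KI, which uses no WT library, 7 of the 9 passed, 4 higher and 3 lower, beside 54.0% of 13269 genes (27.0% in each direction). The groups did not overlap for 4 of the 9 members in KO against WT, 4 in KI against WT and 7 in KO against KI, which was the case for 55.3%, 44.7% and 48.6% of all genes tested. The member counts in the comparisons with WT were thus near the share over all genes. The median log2 fold change of the members was -0.13 in KO against WT, -0.19 in KI against WT and 0.14 in KO against KI, where the medians over all genes tested were -0.03, -0.02 and 0.00.

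**Figure D1:**
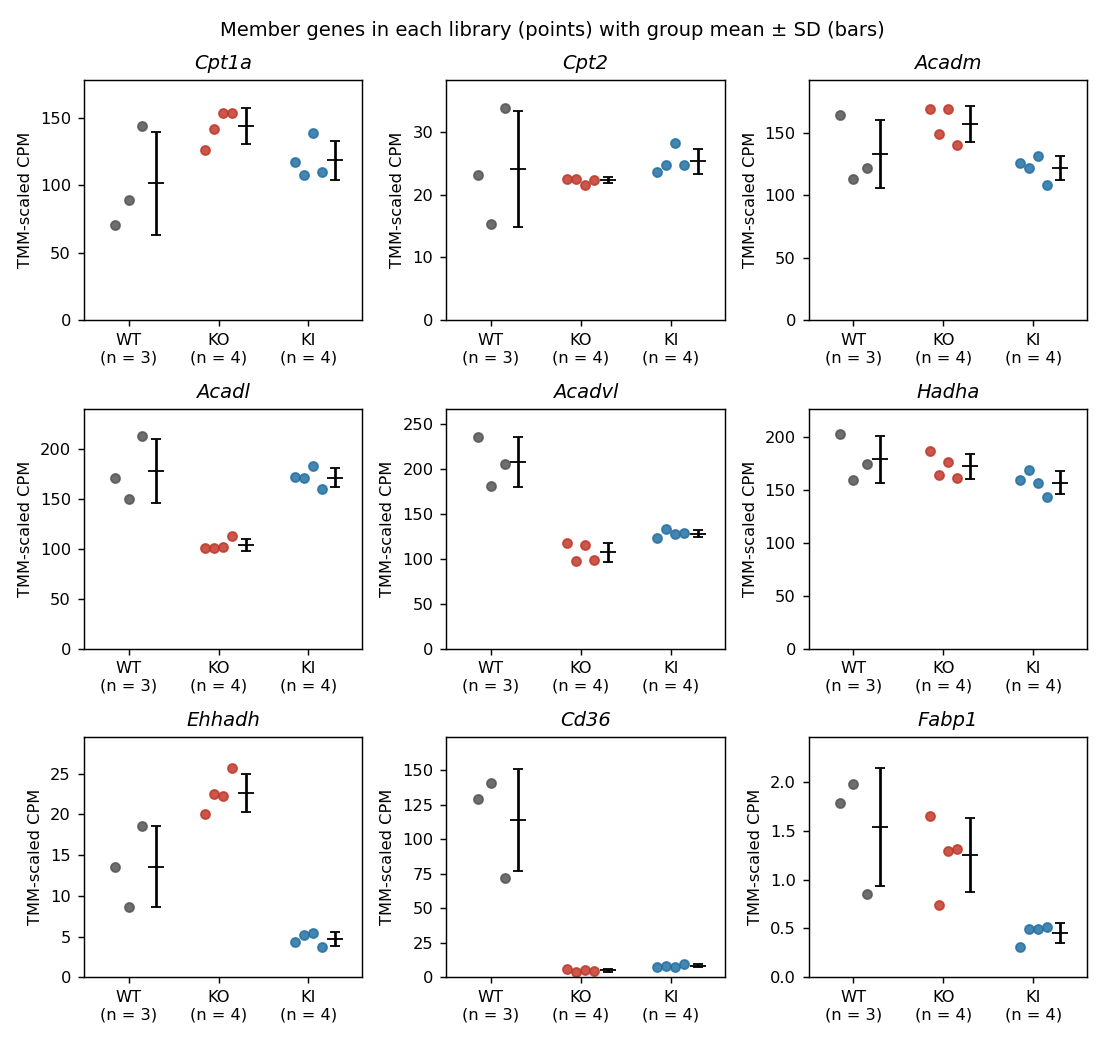
TMM-scaled CPM (vertical axis, linear, from 0) of each of the 9 members in the WT, KO and KI libraries; points are single libraries and the bars beside them the group mean ± SD. Cd36 lies between 72.1 and 141 CPM in WT and between 3.97 and 9.88 in the 2 edited lines, and Ehhadh lies in 3 levels that do not overlap.

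**Figure D2:**
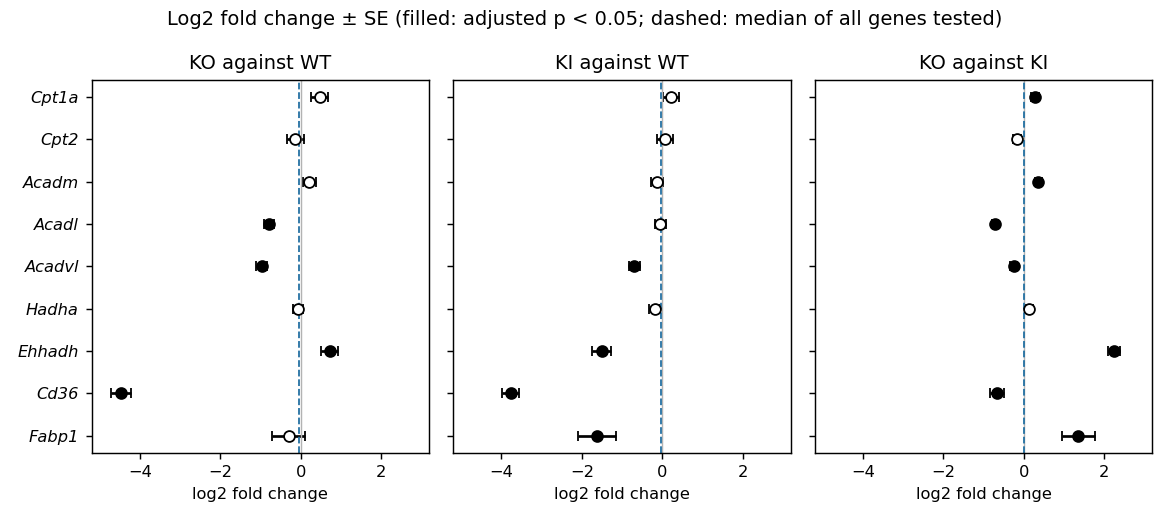
Log2 fold change ± SE (horizontal axis) of the 9 members in KO against WT, KI against WT and KO against KI; filled points passed an adjusted p of 0.05 and the dashed line is the median of all genes tested. Cd36 is farthest from 0 in both comparisons with WT, at -4.46 and -3.77, and Ehhadh lies at 0.72 in the first and at -1.51 in the second.

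Cd36, the membrane receptor for long-chain fatty acids, differed most from WT of the 9 genes in both lines. It lay at 129, 141 and 72.1 CPM in the WT libraries 5-6, 7 and 8, at 6.39, 3.97, 5.49 and 4.97 CPM in KO 5 to 8, and at 7.75, 8.46, 7.32 and 9.88 CPM in KI 5 to 8. The lowest WT library was thus above the highest library of either edited line, and WT 8 was the lowest of the WT libraries. Cd36 was 22.0-fold lower in KO than in WT (log2 fold change -4.46 ± 0.25 SE, edgeR adjusted p = 3.01e-07) and 13.6-fold lower in KI than in WT (-3.77 ± 0.22, edgeR adjusted p = 1.95e-07). KO was also below KI, by 1.59-fold (log2 fold change -0.67 ± 0.17, edgeR adjusted p = 0.00364), and those groups did not overlap. All 3 calls held in every alternative setting and with any single library left out. In such bulk RNA, fewer cells of a type and less RNA per cell cannot be told apart. Cd36 is also expressed by macrophages, endothelial cells and adipocytes. Their markers at or near 0 were Adgre1 (at 0 in all 11 libraries), Csf1r (at most 0.178 CPM), Adipoq and Plin1 (both at 0 in all), and the 4 endothelial genes summed (at most 0.425 CPM). Cidec, the remaining adipocyte marker, stood at 0 to 0.357 CPM in WT, 0.237 to 0.617 in KO and 0 to 0.304 in KI. The 6 macrophage markers summed to 481 to 669 CPM in WT, 377 to 465 in KO and 375 to 423 in KI, and nearly all of this was Cd14, which hepatocytes can also express. The low ones were mixed. Cd68 was lower in both lines, as Cd36 was, with 4.37 to 7.29 CPM in WT, 1.24 to 2.09 in KO and 1.43 to 2.89 in KI. Ptprc, the common leukocyte antigen, stood at 1.31 to 2.70 CPM in WT, 0 to 0.326 in KO and 1.09 to 2.77 in KI, and Lyz2, a macrophage lysozyme, at 0 to 0.425 CPM in WT, 0.300 to 0.785 in KO and 0.470 to 1.00 in KI. Their part in the Cd36 result was not tested.

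Fabp1, the abundant fatty acid binding protein of liver cytosol, was close to the limit of detection in this line, with 11 to 59 counts a library. It lay at 1.78, 1.98 and 0.850 CPM in WT, at 1.65, 0.740, 1.29 and 1.31 CPM in KO and at 0.308, 0.496, 0.496 and 0.517 CPM in KI. KO libraries lay within or just below the WT range, and all KI libraries lay below both. Fabp1 was 3.09-fold lower in KI than in WT (log2 fold change -1.63 ± 0.47, edgeR adjusted p = 0.0145), a call that was lost without WT 5-6 (-1.51, adjusted p = 0.0611) or without WT 7 (-1.41, adjusted p = 0.0832). Against KI, KO was 2.57-fold higher (1.36 ± 0.40, edgeR adjusted p = 0.0103). KO did not pass against WT (-0.30 ± 0.42, edgeR adjusted p = 0.565).

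Cpt1a, the liver form of carnitine palmitoyltransferase 1, varied more among WT libraries than between groups. Its values were 70.7, 89.4 and 144 CPM in WT, 126, 142, 154 and 154 CPM in KO and 117, 108, 139 and 110 CPM in KI. WT 8 alone reached the KO range, and the other WT libraries lay below every edited library. The difference of KO from WT did not pass the test (log2 fold change 0.48 ± 0.21, edgeR adjusted p = 0.0685), but it passed in 5 of the 8 settings that kept all libraries, library totals among them (0.86, adjusted p = 0.0186), and without WT 8 it was 0.85 (adjusted p = 0.00015). KI against WT was at 0.22 ± 0.21 (edgeR adjusted p = 0.406), passed in 0 of the same 8 settings, and was at 0.56 without WT 8 (adjusted p = 0.00557). KO was higher than KI by 1.22-fold (0.28 ± 0.10, edgeR adjusted p = 0.0274), with overlapping groups, and this call was lost on leaving out any one of KO 6, 7 and 8 and KI 5, 6 and 8 (adjusted p = 0.0547 to 0.0898) or with all 11 libraries in 1 fit (adjusted p = 0.197). Cpt2, the inner membrane partner of Cpt1a, lay at 23.1, 15.4 and 33.9 CPM in WT, between 21.6 and 22.6 CPM in KO and between 23.7 and 28.3 CPM in KI. It passed in no comparison (edgeR adjusted p = 0.621, 0.811 and 0.137 in KO against WT, KI against WT and KO against KI).

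Acadvl, which starts the oxidation of very long acyl chains at the inner mitochondrial membrane, was lower in both edited lines. It lay at 236, 181 and 206 CPM in WT, at 118, 97.8, 115 and 99.0 CPM in KO and at 123, 133, 128 and 129 CPM in KI. No library of either line reached the lowest WT library. Acadvl was 1.96-fold lower in KO (log2 fold change -0.97 ± 0.13, edgeR adjusted p = 0.000104) and 1.62-fold lower in KI (-0.69 ± 0.13, edgeR adjusted p = 0.00111). Between the lines, KO was 1.19-fold below KI (-0.25 ± 0.09, edgeR adjusted p = 0.0222), but this call was lost with library totals (-0.19, adjusted p = 0.0706), with all 11 libraries in 1 fit (-0.26, adjusted p = 0.0629) and without KO 6 (-0.21, adjusted p = 0.0869), KO 8 (-0.21, adjusted p = 0.0648) or KI 6 (-0.24, adjusted p = 0.0577). The median over 1009 genes tested of chromosome 11, where Acadvl lies, was -0.34 in KO against WT. In KO against KI that median was -0.27 over 1003 genes, so the Acadvl difference between the lines (-0.25) was no larger. In KI against WT it was -0.09 over 1029 genes. What part the chromosome had in the Acadvl values was not tested.

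Acadl, the long-chain acyl-CoA dehydrogenase, was lower in KO. It lay at 171, 150 and 213 CPM in WT, at 101, 101, 102 and 113 CPM in KO and at 172, 171, 183 and 160 CPM in KI. The KO libraries lay below all others, while KI lay within the WT range. Acadl was 1.73-fold lower in KO than in WT (log2 fold change -0.79 ± 0.13, edgeR adjusted p = 0.000497), a call that was lost with library totals (-0.40, adjusted p = 0.0770), and 1.64-fold lower in KO than in KI (-0.71 ± 0.08, edgeR adjusted p = 3.66e-06), a call that held in every setting. In KI against WT the log2 fold change was -0.05 ± 0.14 (edgeR adjusted p = 0.784).

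Acadm, the medium-chain acyl-CoA dehydrogenase, lay at 164, 113 and 122 CPM in WT, at 169, 149, 169 and 140 CPM in KO and at 126, 122, 131 and 108 CPM in KI. All KO libraries were above all KI libraries, and both overlapped WT. KO was 1.29-fold higher than KI (log2 fold change 0.36 ± 0.09, edgeR adjusted p = 0.0038). Against WT neither line passed, at 0.22 ± 0.15 in KO (edgeR adjusted p = 0.222) and -0.12 ± 0.15 in KI (edgeR adjusted p = 0.544). The KO difference passed without WT 5-6 (0.42, adjusted p = 0.0224) and with library totals (0.64, adjusted p = 0.00199).

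The dehydrogenases Acadl and Acadvl each had 2 entries in the table under the same name, and the 2 entries of Acadvl took very different shares from library to library. The entry with fewer counts held 8.93 to 49.2% of the Acadvl counts in KO, 26.3 to 40.9% in WT and 28.6 to 49.1% in KI, while that of Acadl held 0.265 to 4.48% over all libraries. Tested entry by entry, both Acadvl entries were lower in KO than in WT (log2 fold change -0.79 ± 0.22 and -1.38 ± 0.44, edgeR adjusted p = 0.0114 and 0.025) and in KI than in WT (-0.73 ± 0.14 and -0.64 ± 0.23, edgeR adjusted p = 0.00185 and 0.0437). Neither passed in KO against KI (edgeR adjusted p = 0.884 and 0.221). How reads were divided between entries is not given in the sources used here, so only the sums are read as levels of these genes.

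**Figure D3:**
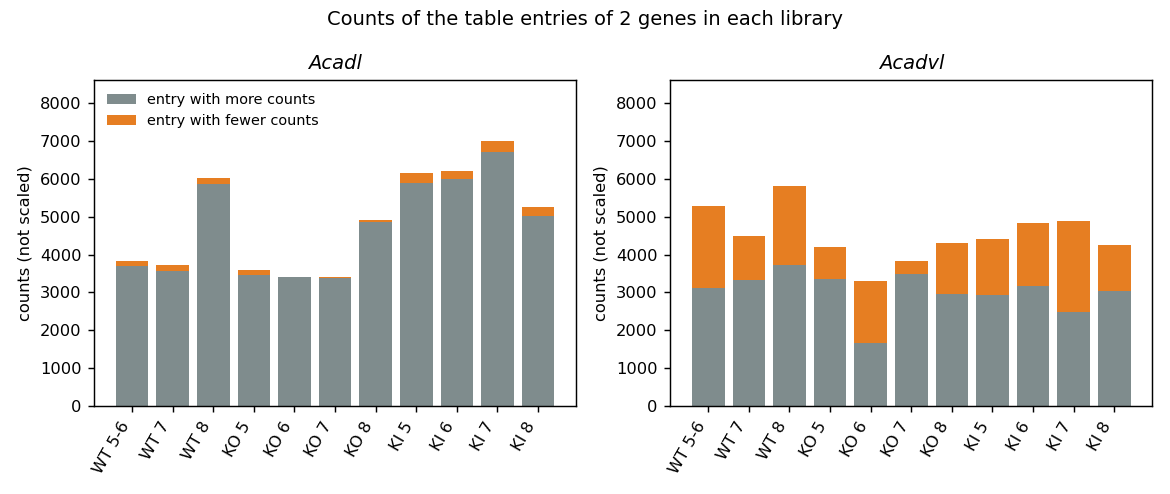
Unscaled counts (vertical axis, linear, from 0) of the 2 table entries of Acadl and of Acadvl, stacked, in each library (horizontal axis). The second entry is a thin layer for Acadl, at most 4.48%, and a variable one for Acadvl, from 8.93% in KO 7 to 49.2% in KO 6.

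Hadha, the alpha subunit of the mitochondrial trifunctional protein, differed little between groups. It lay at 203, 159 and 174 CPM in WT, at 187, 164, 176 and 161 CPM in KO and at 159, 169, 156 and 143 CPM in KI, and all 3 groups overlapped. It passed in no comparison (log2 fold change -0.07 ± 0.12, -0.19 ± 0.13 and 0.14 ± 0.08 in KO against WT, KI against WT and KO against KI, edgeR adjusted p = 0.628, 0.278 and 0.185), except with library totals in KO against WT, where its sign turned (0.34, adjusted p = 0.0325). That value was below the median of all genes under the same scaling, 0.38.

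Ehhadh, the peroxisomal bifunctional enzyme that carries hydratase and dehydrogenase activities in 1 chain, moved in opposite directions in the edited lines. It lay at 13.5, 8.63 and 18.6 CPM in WT, at 20.0, 22.5, 22.3 and 25.7 CPM in KO and at 4.39, 5.26, 5.51 and 3.74 CPM in KI. The order KI, WT, KO held without overlap between groups, although the highest WT library, WT 8, lay just below the lowest KO library. Ehhadh was 1.64-fold higher in KO than in WT (log2 fold change 0.72 ± 0.22, edgeR adjusted p = 0.0171), a call that was lost without WT 7 (0.50, adjusted p = 0.0567), and 2.84-fold lower in KI than in WT (-1.51 ± 0.24, edgeR adjusted p = 0.000388). KO against KI, the test of the difference between the lines, gave 4.75-fold (2.25 ± 0.15, edgeR adjusted p = 7.43e-09) and held in every setting. On chromosome 16, where Ehhadh lies, the median log2 fold change over 373 genes tested was 0.49 in KO against WT and over 374 genes tested was 0.50 in KO against KI, so genes of that chromosome were on the whole higher in KO. What part this had in the Ehhadh values was not tested. The median on chromosome 16 in KI against WT was -0.03 over 369 genes.

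The spread among libraries, in proportion to the mean, was widest in WT for all 9 members. The coefficient of variation ran from 12.5% (Hadha) to 39.2% (Fabp1) in WT, from 2.14% (Cpt2) to 30.3% (Fabp1) in KO and from 3.15% (Acadvl) to 21.6% (Fabp1) in KI. WT 8 held the highest WT value of Cpt1a, Cpt2, Acadl and Ehhadh and the lowest of Cd36 and Fabp1. The calls that hung on single WT libraries, for Cpt1a, Acadm, Ehhadh and Fabp1, were among genes with a WT coefficient of variation of 20.4% or more.

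Compared with each other as levels per kilobase of annotated exon (GENCODE M21, all exons of a gene joined), Acadl was first in every group, at 88.9 ± 16.1 CPM per kb in WT, 52.0 ± 3.01 in KO and 85.5 ± 4.78 in KI (SD, n = 3, 4 and 4). Acadvl followed in WT at 77.3 ± 10.1 CPM per kb, within the spread of Acadl, then Acadm at 33.9 ± 6.92 and Cd36 at 31.8 ± 10.3, which were indistinguishable within their spread. Hadha, Cpt1a and Cpt2 stood at 20.5 ± 2.56, 13.3 ± 4.96 and 10.1 ± 3.89 CPM per kb in WT, and neighbours in that order overlapped. Ehhadh and Fabp1 were lowest, at 4.55 ± 1.68 and 2.78 ± 1.09 CPM per kb. In KO, Acadm and Acadvl were level at 40.0 CPM per kb. Cd36 had gone from the fourth place to the last, at 1.45 ± 0.282, where its spread overlapped that of Fabp1 at 2.26 ± 0.683. In KI, Cd36 stood seventh at 2.33 ± 0.313 CPM per kb, Ehhadh followed at 1.59 ± 0.274 and Fabp1 was last at 0.821 ± 0.178. These lengths include exons of every annotated transcript and make the level of genes with long alternative exons, Hadha among them, look lower.

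The other genes of the pathway were taken from 7 lists with 88 genes, 77 of which could be tested in KO against WT, 78 in KI against WT and 76 in KO against KI. In KO against WT 14 were higher and 30 lower (57.1% called, 55.1% over all genes), but with library totals 29 were higher and 19 lower. In KI against WT 4 were higher and 30 lower (43.6% called, 42.3% over all genes), but 20 and 13 with library totals and 8 and 34 without WT 8. In KO against KI 27 were higher and 21 lower (63.2% called, 54.0% over all genes), and 28 and 20 with library totals. The median log2 fold change of these genes was -0.23 in KO against WT, -0.33 in KI against WT and 0.09 in KO against KI, where all genes tested had -0.03, -0.02 and 0.00. Under library totals the medians of the pathway genes were 0.20, 0.00 and 0.15, and those of all genes 0.38, 0.30 and 0.06, so in the comparisons with WT the pathway genes lay below the median of all genes under either scaling.

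**Figure D4:**
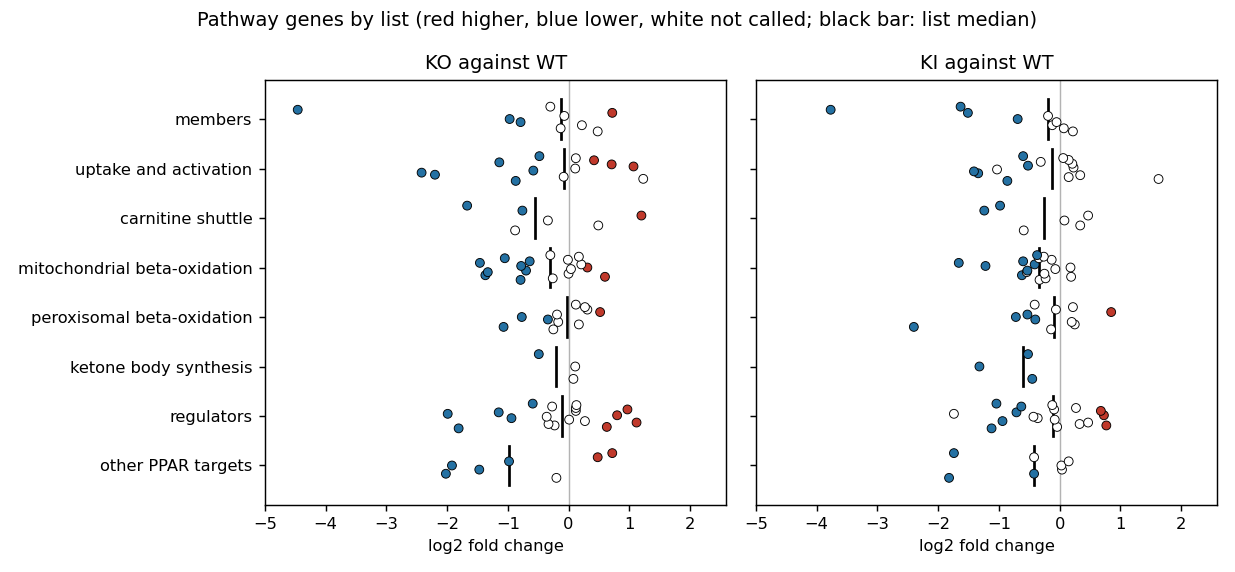
Log2 fold change (horizontal axis) of the tested genes among the members and the 7 pathway lists, less 2 that are not reported here, in KO against WT and KI against WT; red points passed as higher, blue as lower, white did not pass, and black bars are medians over the whole lists. The list of other PPAR targets has the lowest median in KO against WT, -0.98, and that of ketone body synthesis in KI against WT, -0.61.

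Among 19 genes of fatty acid uptake and activation, 3 of 13 tested were higher and 6 lower in KO against WT (4 and 4 with library totals), and 0 of 14 were higher and 5 lower in KI against WT (6 and 3 with library totals). These were 69.2% and 35.7% of the list, beside 55.1% and 42.3% of all genes tested. Slc27a1, a fatty acid transport protein, was lower in both lines (log2 fold change -0.87 ± 0.13 in KO and -0.86 ± 0.13 in KI, edgeR adjusted p = 0.000189 and 0.000283), with 56.4 to 67.0 CPM in WT and 29.1 to 37.5 CPM in the 8 edited libraries. Slc27a6, a relative of it, fell in KO, from 4.64 to 8.56 CPM in WT to 1.26 to 1.68 CPM in KO (-2.20 ± 0.26, edgeR adjusted p = 4.87e-05), and stood at 6.72 to 9.67 CPM in KI. KO was below KI for this gene too (-2.52 ± 0.19, edgeR adjusted p = 2.93e-08). Of the binding proteins, Fabp4, at 4.32 to 12.6 CPM in WT, was lower in KO (1.27 to 2.49 CPM, -2.42 ± 0.36, edgeR adjusted p = 0.000233) and in KI (2.43 to 4.96 CPM, overlapping WT, -1.34 ± 0.33, edgeR adjusted p = 0.00656). Fabp5, the most abundant of them, was lower in KI (-1.41 ± 0.15, edgeR adjusted p = 1.66e-05) and, except with library totals (adjusted p = 0.305), in KO (-0.58 ± 0.16, edgeR adjusted p = 0.00904). Dbi, the acyl-CoA binding protein, passed weakly in both comparisons with WT (edgeR adjusted p = 0.0477 and 0.0186), in neither with library totals (adjusted p = 0.834 and 0.228) and in neither without WT 5-6 (adjusted p = 0.31 and 0.0972). The Dbi call in KO was lost as well without WT 7 (adjusted p = 0.0593) or any one of KO 6, 7 and 8 (adjusted p = 0.0919 to 0.121).

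Acsl1, the long-chain acyl-CoA synthetase that activates fatty acids in liver, went the way of Ehhadh. It lay at 17.5, 21.4 and 29.8 CPM in WT, at 43.3, 49.1, 51.0 and 52.2 CPM in KO and at 14.7, 16.3, 17.3 and 15.7 CPM in KI. KO was higher than WT (log2 fold change 1.07 ± 0.18, edgeR adjusted p = 0.000475) and higher than KI (1.61 ± 0.10, edgeR adjusted p = 4.38e-09), and both calls held in every setting. The lower level in KI against WT (-0.52 ± 0.18, edgeR adjusted p = 0.0347) was lost with library totals (-0.22, adjusted p = 0.475) and without WT 8 (-0.28, adjusted p = 0.141), WT 7 (adjusted p = 0.0624), KI 5 (adjusted p = 0.0941), KI 6 (adjusted p = 0.0697) or KI 8 (adjusted p = 0.0662). Other synthetases were mixed in KO against WT. Acsl4 was lower (-1.14 ± 0.12, edgeR adjusted p = 1.77e-05), while Acsl3 (0.71 ± 0.12, edgeR adjusted p = 0.000623) and Acsl5 (0.42 ± 0.12, edgeR adjusted p = 0.0103) were higher.

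In the carnitine shuttle, 1 of 6 genes was higher and 2 were lower in KO against WT (2 and 1 with library totals), and 0 were higher and 2 lower in KI against WT (2 and 2 with library totals). The share called, 50% and 33.3%, was below that of all genes tested, 55.1% and 42.3%. Slc22a5, the plasma membrane carnitine transporter, lay at 59.7 to 70.4 CPM in WT, 18.8 to 25.5 CPM in KO and 30.2 to 37.5 CPM in KI, 3 ranges without overlap. It was lower in KO (log2 fold change -1.67 ± 0.14, edgeR adjusted p = 5.05e-06) and in KI (-0.98 ± 0.14, edgeR adjusted p = 0.000132) than in WT. Crat, carnitine acetyltransferase, was higher in KO than in WT (1.20 ± 0.19, edgeR adjusted p = 0.000372) and than in KI (0.76 ± 0.10, edgeR adjusted p = 1.73e-05). Crot, which makes carnitine esters of medium-chain products from peroxisomes, was lower in KI than in WT (-1.24 ± 0.21, edgeR adjusted p = 0.000557). Its lower level in KO (-0.76 ± 0.21, edgeR adjusted p = 0.0104) was lost with library totals (-0.32, adjusted p = 0.13) and without WT 7 (-0.58, adjusted p = 0.0682). KO libraries of Crot, at 264 to 391 CPM, overlapped those of WT, at 369 to 657.

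Of 17 other genes of mitochondrial beta-oxidation, 2 were higher and 8 lower in KO against WT (7 and 5 with library totals), and 0 were higher and 7 lower in KI against WT (2 and 2 with library totals). The share called, 58.8% and 41.2%, was near that of all genes tested, 55.1% and 42.3%. Eci2, an enoyl-CoA isomerase for unsaturated chains, was the clearest in both, at 402, 295 and 260 CPM in WT, 133, 105, 128 and 104 CPM in KO and 95.8, 101, 111 and 97.0 CPM in KI (log2 fold change -1.46 ± 0.16 in KO and -1.66 ± 0.16 in KI, edgeR adjusted p = 3.53e-05 and 8.29e-06). Acaa2, the mitochondrial thiolase, was lower in KI (-1.22 ± 0.15, edgeR adjusted p = 4.36e-05) and in KO (-0.78 ± 0.16, edgeR adjusted p = 0.00202; 0.0516 with library totals). Hadhb, which forms the trifunctional protein with Hadha, stood at 193, 181 and 115 CPM in WT, 125, 92.6, 111 and 78.6 CPM in KO and 111, 105, 103 and 132 CPM in KI. Its lower calls (-0.70 ± 0.20 in KO and -0.53 ± 0.18 in KI, edgeR adjusted p = 0.012 and 0.0288) were lost with library totals (adjusted p = 0.197 and 0.366), without WT 5-6 (adjusted p = 0.0573 and 0.122) and without WT 7 (adjusted p = 0.0664 and 0.122), and that in KI also without KI 5 (adjusted p = 0.0712), KI 6 (adjusted p = 0.0809) or KI 7 (adjusted p = 0.0743).

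Etfa, a subunit of the flavoprotein that takes electrons from the acyl-CoA dehydrogenases, was lower in KO than in WT (log2 fold change -1.05 ± 0.15, edgeR adjusted p = 0.000136) and than in KI (-0.69 ± 0.10, edgeR adjusted p = 3.75e-05), as Acadl was. Acad10, a further dehydrogenase of the family, was lower in KO than in WT (-1.37 ± 0.19, edgeR adjusted p = 0.000154) and than in KI (-0.73 ± 0.20, edgeR adjusted p = 0.00676). Its lower level in KI than in WT (-0.62 ± 0.22, edgeR adjusted p = 0.0387) was lost with library totals (adjusted p = 0.383) and without any one of WT 7, WT 8, KI 5, KI 6 and KI 8 (adjusted p = 0.0584 to 0.111). Decr1, the dienoyl-CoA reductase, was lower in KO (-0.64 ± 0.17, edgeR adjusted p = 0.00734) and in KI (-0.60 ± 0.17, edgeR adjusted p = 0.0126), but in neither with library totals (adjusted p = 0.225 and 0.194) and not in KI without WT 7 (-0.50, adjusted p = 0.0704).

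In peroxisomes, where Ehhadh works, 2 of 12 genes tested were higher and 3 lower in KO against WT (6 and 1 with library totals), and 1 was higher and 4 were lower in KI against WT (3 and 1 with library totals). The share called was 41.7% in both, beside 55.1% and 42.3% of all genes tested. Acox2, the oxidase for branched chains and bile acid intermediates, stood at 199, 208 and 255 CPM in WT, 105, 101, 113 and 107 CPM in KO and 37.4, 44.2, 47.2 and 39.0 CPM in KI. It was lower in KO (log2 fold change -1.07 ± 0.12, edgeR adjusted p = 3.79e-05) and further down in KI (-2.40 ± 0.15, edgeR adjusted p = 2.68e-07), and KO exceeded KI (1.34 ± 0.10, edgeR adjusted p = 1.76e-08), the same direction between the lines as Ehhadh. Abcd3, a fatty acid importer, was higher in KO than in WT (0.52 ± 0.16, edgeR adjusted p = 0.0162), though not without WT 5-6 (adjusted p = 0.0524) or WT 7 (adjusted p = 0.0738), and it was higher in KI as well (0.85 ± 0.17, edgeR adjusted p = 0.00194). The thiolases Acaa1a and Acaa1b, near-identical copies between which reads can be split, passed as lower in both comparisons with WT (edgeR adjusted p = 0.0263 and 0.00735 in KO, 0.0216 and 0.0142 in KI) and in neither with library totals, where Acaa1a turned to 0.07 in KO. Without WT 7, Acaa1a did not pass in either line (adjusted p = 0.0877 and 0.0711), and it was also lost without KO 6, 7 or 8 (adjusted p = 0.0554 to 0.0892) and without KI 5, 6 or 7 (adjusted p = 0.0525 to 0.0821). Acaa1b in KI was lost without WT 5-6 (adjusted p = 0.0627).

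Ketone body synthesis uses the acetyl-CoA that beta-oxidation yields, and 0 of its 4 genes were higher and 2 lower in KO against WT (1 and 1 with library totals), with 0 higher and 4 lower in KI against WT (0 and 1 with library totals). Over all genes tested, 55.1% and 42.3% were called in these comparisons. Bdh1, the dehydrogenase that makes beta-hydroxybutyrate, was low throughout and lower in KI than in WT (log2 fold change -1.32 ± 0.37, edgeR adjusted p = 0.0118) and in KO (KO against KI 1.46 ± 0.30, edgeR adjusted p = 0.000804). Acat1, the thiolase of the first step, passed narrowly against WT in both lines (edgeR adjusted p = 0.0459 and 0.0448) and in neither with library totals (adjusted p = 0.781 and 0.457), without WT 5-6 (adjusted p = 0.138 and 0.127) or without WT 7 (adjusted p = 0.25 and 0.228). These Acat1 calls were also lost without KO 6, 7 or 8 (adjusted p = 0.0773 to 0.111) and without KI 5, 6 or 7 (adjusted p = 0.0978 to 0.115).

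Ppara, the nuclear receptor that drives these genes in liver, was itself lower in both lines. It lay at 24.1, 33.4 and 41.1 CPM in WT, at 8.44, 9.59, 9.48 and 10.5 CPM in KO and at 14.5, 12.4, 19.3 and 14.4 CPM in KI, and the 3 groups did not overlap. The log2 fold change was -1.81 ± 0.18 in KO against WT (edgeR adjusted p = 1.64e-05), -1.12 ± 0.20 in KI against WT (edgeR adjusted p = 0.000813) and -0.67 ± 0.15 in KO against KI (edgeR adjusted p = 0.0014), and all 3 calls held in every setting. Its order over the groups, WT above KI above KO, was that of Cd36 and not that of Ehhadh.

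Of the 18 regulators tested, Ppara included, 4 were higher and 5 lower in KO against WT (7 and 3 with library totals), and 3 were higher and 5 lower in KI against WT (5 and 2 with library totals). The share called, 50% and 44.4%, was near that of all genes tested, 55.1% and 42.3%. Rxra, a retinoid X receptor that pairs with PPARα, was lower in KI than in WT (log2 fold change -0.94 ± 0.19, edgeR adjusted p = 0.00194; 0.0511 with library totals), and KO exceeded KI (1.23 ± 0.09, edgeR adjusted p = 3.71e-08). Acaca, the cytosolic acetyl-CoA carboxylase, whose product malonyl-CoA inhibits CPT1, was higher in KO (0.80 ± 0.21, edgeR adjusted p = 0.00709) and in KI (0.73 ± 0.19, edgeR adjusted p = 0.00735). Its KO libraries, at 43.3 to 66.2 CPM, just overlapped those of WT, at 25.5 to 43.8. Mlycd, which breaks malonyl-CoA down, was lower in KO (-1.15 ± 0.15, edgeR adjusted p = 0.000113) and in KI (-0.71 ± 0.15, edgeR adjusted p = 0.00271; 0.0718 with library totals). Acacb, the mitochondrial form of acetyl-CoA carboxylase, was near the limit of detection, at 0.535 to 0.991 CPM in WT, 0 to 0.296 CPM in KO and 0 to 0.551 CPM in KI. Prkaa2, a catalytic subunit of AMP-activated kinase, was higher in KO than in WT (0.97 ± 0.20, edgeR adjusted p = 0.00208) and than in KI (1.08 ± 0.16, edgeR adjusted p = 5.54e-05). Nrip1, a corepressor of nuclear receptors, was lower in KI (-1.04 ± 0.21, edgeR adjusted p = 0.00165) and, less firmly, in KO (-0.59 ± 0.19, edgeR adjusted p = 0.0223), where the call was lost with library totals (adjusted p = 0.513) and without any one of KO 5, KO 7, WT 7 and WT 8 (adjusted p = 0.0556 to 0.0889).

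Among 7 further genes tested that PPARα and its relatives are known to control, 2 were higher and 4 lower in KO against WT (2 and 4 with library totals), and 0 were higher and 3 lower in KI against WT (2 and 2 with library totals). These were 85.7% and 42.9% of the list, beside 55.1% and 42.3% of all genes tested. Angptl4, a secreted inhibitor of lipoprotein lipase, lay at 118, 98.1 and 84.7 CPM in WT and at 25.2, 21.0, 27.8 and 26.1 CPM in KO (log2 fold change -2.02 ± 0.15, edgeR adjusted p = 1.71e-06). Its smaller difference in KI (-0.42 ± 0.14, edgeR adjusted p = 0.0267) was lost with library totals (-0.07, adjusted p = 0.692) and without any one of WT 5-6, WT 7, KI 5, KI 6 and KI 7 (adjusted p = 0.0588 to 0.109). Acot1, an acyl-CoA thioesterase with close relatives beside it in the genome, between which reads can be split, stood at 78.0 to 92.9 CPM in WT and at 20.6 to 27.2 CPM in KO (-1.92 ± 0.14, edgeR adjusted p = 1.6e-06), while KI lay at 71.5 to 109 CPM, around the WT range. Pdk4, which holds back glucose oxidation, was lower in KI than in WT (-1.82 ± 0.30, edgeR adjusted p = 0.000439) and than in KO (KO against KI 1.64 ± 0.27, edgeR adjusted p = 0.000111).

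Vnn1, a pantetheinase of liver, shared the pattern of Ehhadh and Acsl1. Its values were 69.5, 61.8 and 41.1 CPM in WT, 108, 92.5, 102 and 81.4 CPM in KO and 17.1, 16.6, 17.0 and 18.1 CPM in KI, with KO above and KI below every WT library. It was higher in KO than in WT (log2 fold change 0.72 ± 0.18, edgeR adjusted p = 0.0058), lower in KI than in WT (-1.74 ± 0.17, edgeR adjusted p = 1.1e-05) and higher in KO than in KI (2.48 ± 0.10, edgeR adjusted p = 5.45e-11). Genes on which PPARα is known to act included ones with the lowest level in KO (Angptl4, Acot1 and Cd36) and ones with the highest level there (Ehhadh, Acsl1 and Vnn1). What part Ppara had in their levels was not tested.

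**Figure D5:**
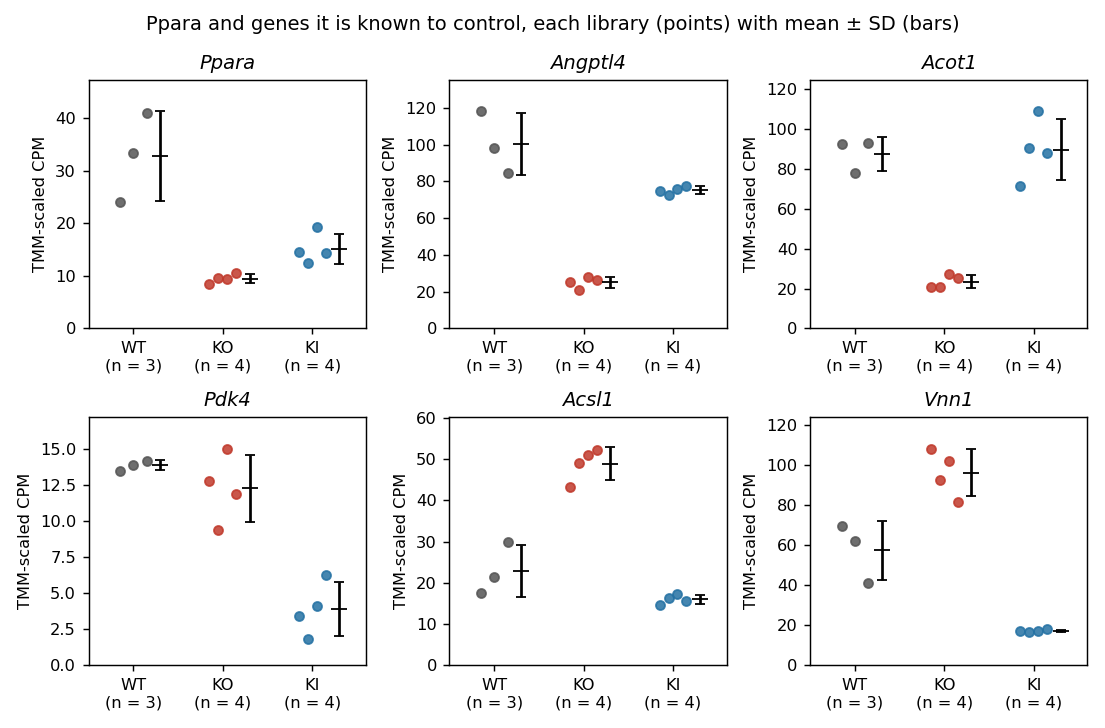
TMM-scaled CPM (vertical axis, linear, from 0) of Ppara and 5 genes it is known to control in each WT, KO and KI library (points), with group mean ± SD (bars). Angptl4 and Acot1 are lowest in KO and Pdk4 is lowest in KI, while Acsl1 and Vnn1 are highest in KO, where Vnn1 reaches 108 CPM, and lowest in KI.

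The genes whose levels followed Cd36 and Cpt1a most closely over the 11 libraries were ranked by Pearson's r of log2 CPM among 12649 annotated genes, as a description over libraries that fall into 3 lines. For Cd36 they were H1f2, a linker histone (r = 0.99), Bnip3l, a mitophagy receptor (r = 0.988), and Tfr2, the hepatic transferrin receptor 2 (r = 0.987), and 533 genes exceeded 0.9. H1f2 went from 135 ± 13.8 CPM in WT (SD, n = 3) to 26.8 ± 3.62 in KO and 35.2 ± 4.25 in KI (n = 4 each). For Cpt1a they were Slc41a1, a magnesium transporter (r = 0.988), Ahcyl2 (r = 0.971) and Wasf2, a regulator of actin (r = 0.969), and 158 genes exceeded 0.9. Wasf2 stood at 55.7 ± 21.2 CPM in WT, 90.6 ± 13.7 in KO and 66.1 ± 6.97 in KI, with a WT spread as wide in proportion as that of Cpt1a.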

How the data were processed

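The authors deposited a table of read counts per transcript entry for 11 AML12 libraries of polyA RNA, beside FPKM values and their own test columns, which were not used. The submitters' processing notes name HISAT2, TopHat2, Bowtie2 and StringTie. The genome build and the counting tool are not given in the sources used here. Of 26472 lines, 10 were broken and left out, and counts were summed by gene name. Genes were tested with edgeR 4.0.16 (R 4.3.3; filterByExpr, TMM, robust quasi-likelihood fit, prior count 2) in each pair of groups, with Benjamini-Hochberg adjustment over all genes tested and a threshold of 0.05. Fold changes come from the pair fits and CPM from scaling over all 11 libraries. DESeq2 1.42.0, limma 3.58.1 on log2(CPM + 1), library totals, other filters and left-out libraries were the alternatives. From the pathway lists, all genes called against WT in both lines were named, with the 2 called genes of largest change per list and comparison at a mean of 10 counts or more, and the 3 genes most like Cd36 and Cpt1a. A pair of genes that this rule names is not reported here. Members, lists and tests were chosen with earlier results of these data known. No pair of libraries within a group agreed within counting error, so none was taken as a copy of another. Each was counted as 1 replicate, although this does not show that they came from separate cultures. Figures were drawn with matplotlib 3.10.9.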

Additional observations from a re-analysis of the deposited data

Results flagged for a closer look

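Of 84 sets of 4 libraries looked at, 3 held a library far from the other 3, with a gap above Dixon's 95% critical value for the share of the range, where chance gives about 1 in 20, or 4.2 sets. Acadl in KO had a ratio of 0.9, because KO 8 stood at 113 CPM and the others at 101 to 102. Fabp1 in KI had 0.901, with KI 5 at 0.308 CPM and the others at 0.496 to 0.517. Acat1 in KI had 0.87, with KI 8 at 193 CPM and the others at 146 to 152.

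In 3 genes the lines differed from WT in opposite directions, and the test of KO against KI passed. The log2 fold change between the lines was 2.25 for Ehhadh, 1.61 for Acsl1 and 2.48 for Vnn1 (edgeR adjusted p = 7.43e-09, 4.38e-09 and 5.45e-11). The opposite direction rested for Acsl1 on a lower level in KI against WT that was lost with library totals (-0.22, adjusted p = 0.475) and on leaving out any one of 5 libraries (adjusted p = 0.0624 to 0.141), and for Ehhadh on a higher level in KO against WT that was lost without WT 7 (0.50, adjusted p = 0.0567).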

How the results depend on the processing

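The count of members called was 4 in KO against WT, 3 to 5 with any library left out and 4 to 6 in the other settings. In KI against WT it was 4, with 3 to 5 and 4, and in KO against KI 7, with 5 to 7 in both. The 44, 34 and 48 pathway genes called in the 3 comparisons became 34 to 50, 24 to 42 and 45 to 49 with a library left out, and every total stayed within 1.5 times, though the counts by direction did not. The 1 member higher in KO against WT became 0 without WT 7 and 2 without WT 5-6 or WT 8, and the 4 pathway genes higher in KI against WT became 8 without WT 8. Of the settings that keep all libraries, library totals changed most, with signs turned in KO against WT for Cpt2 (0.25), Hadha (0.34), Fabp1 (0.12) and Acaa1a (0.07), and in KI against WT for Acadm (0.22), Acadl (0.26) and Hadha (0.15). The higher median of all genes under that scaling moved with these. Leaving out WT 8 turned Cpt2 in KO against WT (range over left-out libraries -0.35 to 0.22) and Acadl in KI against WT (-0.17 to 0.09). Leaving out WT 5-6 turned Hadha in KO against WT (-0.13 to 0.05) and Acadm in KI against WT (-0.23 to 0.06), and leaving out WT 7 turned Cpt2 in KI against WT (-0.17 to 0.40). None of these 5 differences had passed the test with all libraries. DESeq2 gave the same member calls as edgeR in all 27 tests.

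Libraries of different groups with the same number had correlations of their deviations from -0.19 to 0.21 over 8 pairs. The other 32 pairs, those of WT 5-6 among them, lay between -0.2 and 0.17. These ranges overlap and cannot settle whether the numbers pair the libraries. With the number as a replicate block, members called were 5, 4 and 6 in KO against WT, KI against WT and KO against KI. Pathway genes called were 50, 26 and 46. In the comparisons with WT, numbers 5 and 6 shared 1 block with WT 5-6. Over all genes tested the block gave 8183, 4891 and 6453 calls, beside 7362, 5722 and 7171 without it. Under the block Cpt1a passed in KO against WT (0.61, edgeR adjusted p = 0.00115) and Acadvl did not in KO against KI (-0.26, adjusted p = 0.055), nor did Mlycd there (adjusted p = 0.0519). In KI against WT the calls of Acsl1, Acad10, Hadhb, Acaa1a, Acat1 and Angptl4 were also lost under the block (adjusted p = 0.0878, 0.0709, 0.0673, 0.0559, 0.106 and 0.0513).

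With 3 or 4 libraries a group and Fabp1 at 11 to 59 counts, small differences in Fabp1 could not be seen, and 11 of the 88 pathway genes were too low to be tested in KO against WT.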
